A study of Mus musculus with 12 samples.

Results

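The genes described here are 10 targets and feedback regulators that the interleukin-17 (IL-17) and NF-kB pathways share: Lcn2, Cxcl1, Il6, Cebpb, Cebpd, Nfkbiz, Zc3h12a, Tnfaip3, Nfkbia and Relb. They were taken by name from a table of 57010 Ensembl genes, and all 10 were found in it. They were measured by bulk RNA sequencing of mouse cerebellum (of its lobule crus 1, according to the title of the series), in 12 libraries forming 3 groups of 4. The first group was FVB mice and the second Fmr1 knockout mice, both injected with saline, and the third was Fmr1 knockout mice injected with poly(I:C) into the peritoneal cavity. Both knockout groups carry the knockout of Fmr1, the gene of the RNA-binding protein FMRP. Poly(I:C), a synthetic double-stranded RNA that imitates a viral infection, was given to 1 of these groups. No FVB mice given poly(I:C) were among the samples. Age, sex, dose and the interval before collection are not stated in the labels. The series title speaks of IL-17A as acting in autism-related deficits. These 10 genes are targets that IL-17 shares with NF-kB signalling, and whether they read out IL-17A in these samples was not tested.

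IL-17 receptors signal through the adaptor Act1 and TRAF6 to the NF-kB transcription factors. In resting cells NF-kB is held in the cytoplasm by inhibitors such as IkB-alpha, and toll-like receptors, TNF and IL-1 release it too, so none of these targets is specific to IL-17. Stimulated cells make the atypical IkB protein IkB-zeta and the C/EBP factors, which act with NF-kB on secondary targets such as Lcn2 and Il6. The same cells also make the proteins that end the response, among them A20, IkB-alpha and the ribonuclease Regnase-1.

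RefSeq promoter entries on GRCm38.p6 were found for 7 of the 10 genes, and Nfkbiz, Cebpd and Relb had no entry. The deposited counts were made on GRCm39, so the coordinates here describe the promoters only. Each entry holds 250 bases before and 50 after a transcription start. The kB consensus, to which NF-kB dimers bind, was found in the entries of 4 genes: Cxcl1, Tnfaip3, Nfkbia and Il6. It was found in 8.46% of the 32851 promoters in the table. The C/EBP motif TTGCNNAA was found in the entries of Lcn2 and Il6 and in 10.8% of all promoters. Motifs were searched on both strands, together with the TATA box TATAAA (13.6% of all promoters). A match is a stretch of letters and not a measured binding site. The 250 bases before the start are printed 5′ to 3′ for 2 genes that rose in at least 1 comparison (Lcn2, Cxcl1), for the member most abundant in both saline groups, which did not pass the test in any (Nfkbia), and for the member that was nearly undetected (Il6). Capitals mark matches to these motifs.
Lcn2, chr2:32387740-32387989, minus strand, 1 C/EBP match: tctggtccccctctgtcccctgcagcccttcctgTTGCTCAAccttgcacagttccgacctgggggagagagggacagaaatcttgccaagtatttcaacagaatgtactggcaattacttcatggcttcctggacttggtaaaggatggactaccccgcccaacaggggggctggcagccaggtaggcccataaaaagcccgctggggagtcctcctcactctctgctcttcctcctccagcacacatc
Cxcl1, chr5:90890995-90891244, plus strand, 2 overlapping kB matches on opposite strands: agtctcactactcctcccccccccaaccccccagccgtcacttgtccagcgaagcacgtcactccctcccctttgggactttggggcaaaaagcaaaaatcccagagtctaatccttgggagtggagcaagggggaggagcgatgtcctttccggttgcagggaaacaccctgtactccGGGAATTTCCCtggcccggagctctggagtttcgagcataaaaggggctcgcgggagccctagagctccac
Nfkbia, chr12:55492648-55492897, minus strand, 1 kB match: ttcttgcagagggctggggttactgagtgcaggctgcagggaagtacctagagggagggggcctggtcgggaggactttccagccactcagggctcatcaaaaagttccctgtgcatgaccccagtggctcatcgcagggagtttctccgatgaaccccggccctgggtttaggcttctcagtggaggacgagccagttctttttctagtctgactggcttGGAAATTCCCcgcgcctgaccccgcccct
Il6, chr5:30012864-30013113, plus strand, a C/EBP match and then a kB match: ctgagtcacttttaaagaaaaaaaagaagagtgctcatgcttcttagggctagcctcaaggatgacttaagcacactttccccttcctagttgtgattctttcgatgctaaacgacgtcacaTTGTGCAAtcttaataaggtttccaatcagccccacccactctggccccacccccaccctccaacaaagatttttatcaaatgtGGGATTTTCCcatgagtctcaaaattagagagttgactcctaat

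The libraries held 35.2 to 56.4 M counts each. Levels are in CPM, a gene's counts relative to the total of its library after TMM scaling, and group values are means ± SD. Fmr1, the check of the genotype labels, was at 85.5 to 108 CPM in FVB and 27.9 to 36.8 CPM in all 8 knockout libraries, so Fmr1 RNA was lower in these and not absent. Choroid plexus markers set 3 libraries apart: Ttr stood at 4156 CPM in saline knockout 2 and, within the treated group, at 2167 and 2631 CPM in numbers 2 and 3, against at most 65.3 CPM in the other 9. Cerebellar markers were present in each library, with the 8 Purkinje cell markers summing to 6209 to 8184 CPM and the 8 granule cell markers to 6513 to 7476 CPM. Because no label says that the samples came from separate animals, p-values here describe only the spread between these samples, which may be technical. In bulk RNA, a change in the number of cells of a type and a change in RNA per cell cannot be told apart.

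Of the 10 genes, 9 had enough counts to be tested, and Il6 did not. Of these 9, Lcn2 and Cebpd rose in the treated against the saline knockout and none fell. The test was edgeR's quasi-likelihood fit, with a threshold of 0.05 on the p adjusted by Benjamini and Hochberg's method over 19166 genes. In that comparison 1.81% of all tested genes rose and 1.06% fell. Both genes lay above the saline knockout without overlap, as did 4.93% of all tested genes. The feedback regulators Nfkbia, Tnfaip3 and Nfkbiz and the NF-kB subunit gene Relb did not pass in any of the 3 comparisons. Between the knockout groups all 9 had a positive fold change, as did 49.6% of all tested genes, although those of Cebpb, Tnfaip3, Nfkbiz and Relb turned negative without the 3 libraries high in Ttr. The median was 0.13 on the log2 scale against −0.00167 over all tested genes. Between the saline knockout and FVB edgeR called 0 of 9, limma-voom 0 and DESeq2 1, and 1 had an unadjusted p under 0.05, where 1.53% of all tested genes were called. Between the treated knockout and FVB, Lcn2 and Cxcl1 rose and none fell, against 3.81% of all tested genes that rose. Lcn2 and Cebpd lay above FVB without overlap, as did 6.74% of all tested genes. The 2 comparisons with the treated knockout share its libraries, and the 2 with FVB share the FVB libraries.

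**Figure D1:**
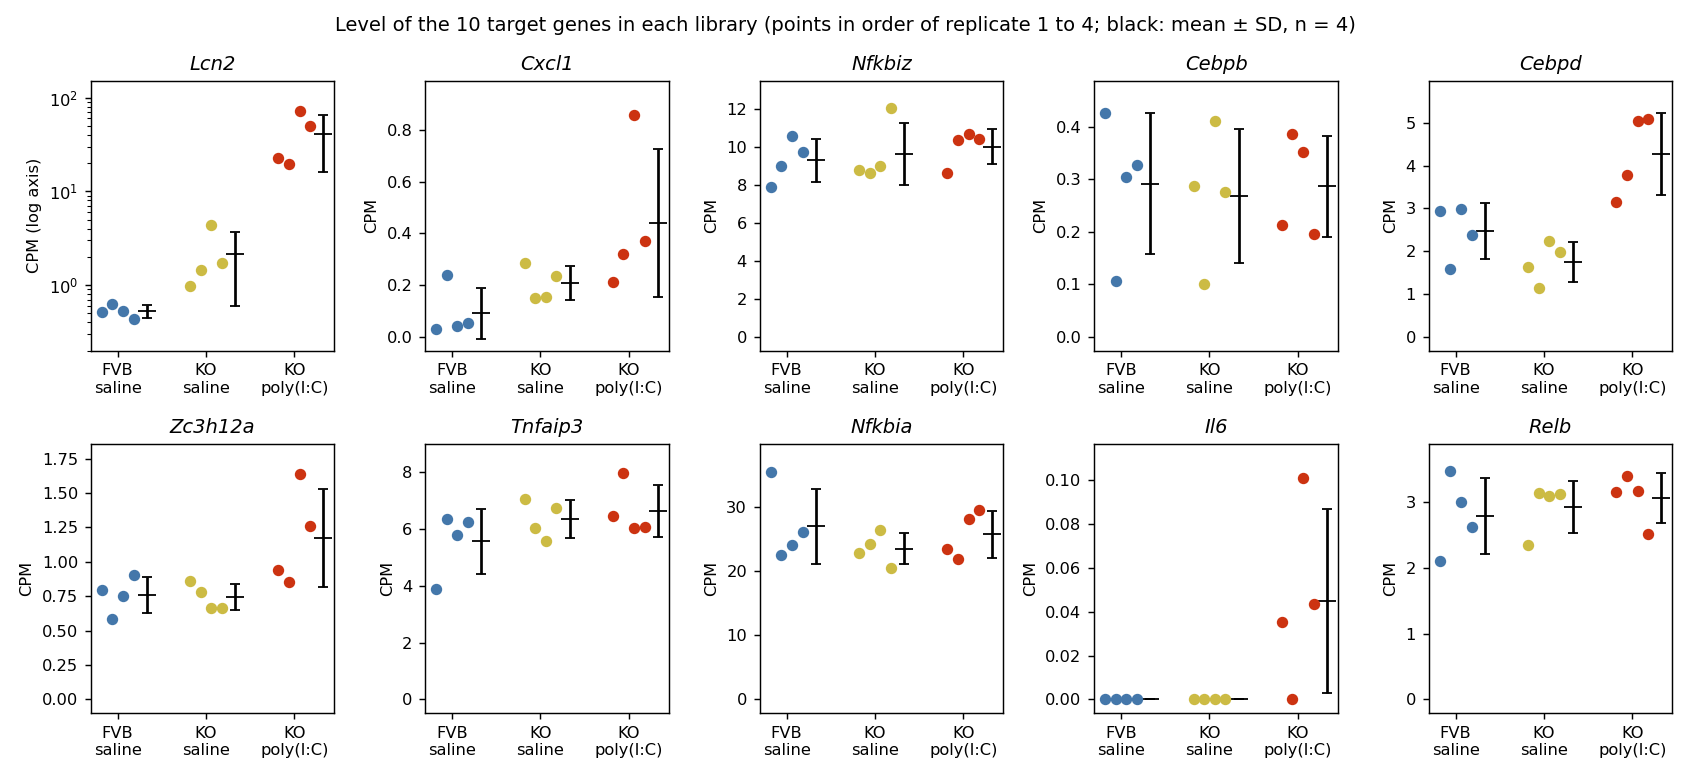
Each panel plots the CPM of 1 gene (linear axes, except a log axis for Lcn2) in the 12 libraries, coloured by group, with the mean ± SD of the 4 libraries in black. All 4 treated libraries lie above all 8 others for Lcn2 and Cebpd, while the groups overlap for Nfkbiz, Cebpb, Tnfaip3, Nfkbia and Relb.

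Secreted products came first. Lcn2 encodes lipocalin 2, which withholds iron from bacteria by binding their siderophores and is made by reactive astrocytes, endothelium, choroid plexus and neutrophils. Over FVB 1 to 4 it measured 0.512, 0.636, 0.527 and 0.437 CPM. The saline knockout libraries, in the same order, held 0.991, 1.44, 4.38 and 1.71 CPM and the treated ones 22.6, 19.4, 71.7 and 49.5 CPM. The 3 groups did not overlap, and within each knockout group replicate 3 was the highest library. The log2 fold change of treated against saline knockout was 4.26 (SE 0.573, edgeR adjusted p = 0.00331), a 19.2-fold difference. It was 3.94 (edgeR adjusted p = 0.0277) without the 3 libraries high in Ttr and 4.87 (0.00218) without saline knockout 3. Against FVB the treated knockout was higher by 6.26 (SE 0.674, edgeR adjusted p = 4.62e-04), a 76.7-fold difference. Saline knockout against FVB gave a log2 value of 2.00 (SE 0.712), which did not pass by edgeR (adjusted p = 0.284) although the 4 and 4 libraries did not overlap. Lack of overlap was seen for 7.02% of all tested genes in that comparison. DESeq2 called this difference (adjusted p = 0.0164), as did edgeR fitted on these 2 groups alone (0.0264), and without saline knockout 3 the value was 1.39 (edgeR adjusted p = 0.491).

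Neutrophil granules also carry lipocalin 2, and the neutrophil marker sum, like Lcn2, was higher in each saline knockout library than in FVB. The 12 neutrophil markers summed to between 2.73 and 4.98 CPM in FVB. The sum lay between 6.70 and 38.3 CPM for saline knockout mice and between 5.55 and 15.1 CPM for treated ones. S100a8, an alarmin subunit, had group means of 0.146 (FVB), 2.62 (saline) and 0.770 CPM (treated). Between the knockout groups S100a8 did not pass (log2 −1.78, SE 0.582, edgeR adjusted p = 0.147). There edgeR called 0 of the 8 tested neutrophil markers, where 1.81% of all tested genes rose and 1.06% fell. S100a8 rose in the saline knockout against FVB (log2 4.14, edgeR adjusted p = 0.0119), a call that leaving out any 1 FVB library ended (adjusted p = 0.0544 to 0.0637). In that comparison edgeR called 1.53% of all tested genes. Of the 8 neutrophil markers tested, S100a8, S100a9 and Ltf rose in it by edgeR and 5 did not pass. None of these 3 passed by limma-voom, where the adjusted p was 0.0545, 0.0513 and 0.0808. The calls of S100a9 and Ltf ended without any 1 FVB library, saline knockout 2 or 4 or treated knockout 2 or 4, and that of S100a9 also without treated knockout 1 (edgeR adjusted p = 0.0509 to 0.136 for S100a9 and 0.0654 to 0.142 for Ltf). All 12 markers had at least 1 count. Among the saline knockout libraries, number 3 had the highest Lcn2 and also the highest neutrophil sum, 38.3 CPM against 6.70 to 18.5 CPM. Treated knockout 3 likewise had the highest Lcn2 and the highest neutrophil sum of its group, 15.1 CPM against 5.55 to 7.58 CPM. Within FVB this did not hold, as FVB 2 had the highest Lcn2, 0.636 CPM, and the lowest neutrophil sum, 2.73 CPM. The FVB order rests on few counts, with 16 to 26 Lcn2 counts per FVB library. In FVB 2 the marker Csf3r alone held 1.80 CPM of the neutrophil sum. Between the knockout groups Lcn2 and the neutrophil sum did not move together. Lcn2 was higher in every treated library, while the neutrophil sum of the treated libraries lay within or below the range of the saline ones. The part of neutrophil RNA in the Lcn2 level was not tested.

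**Figure D2:**
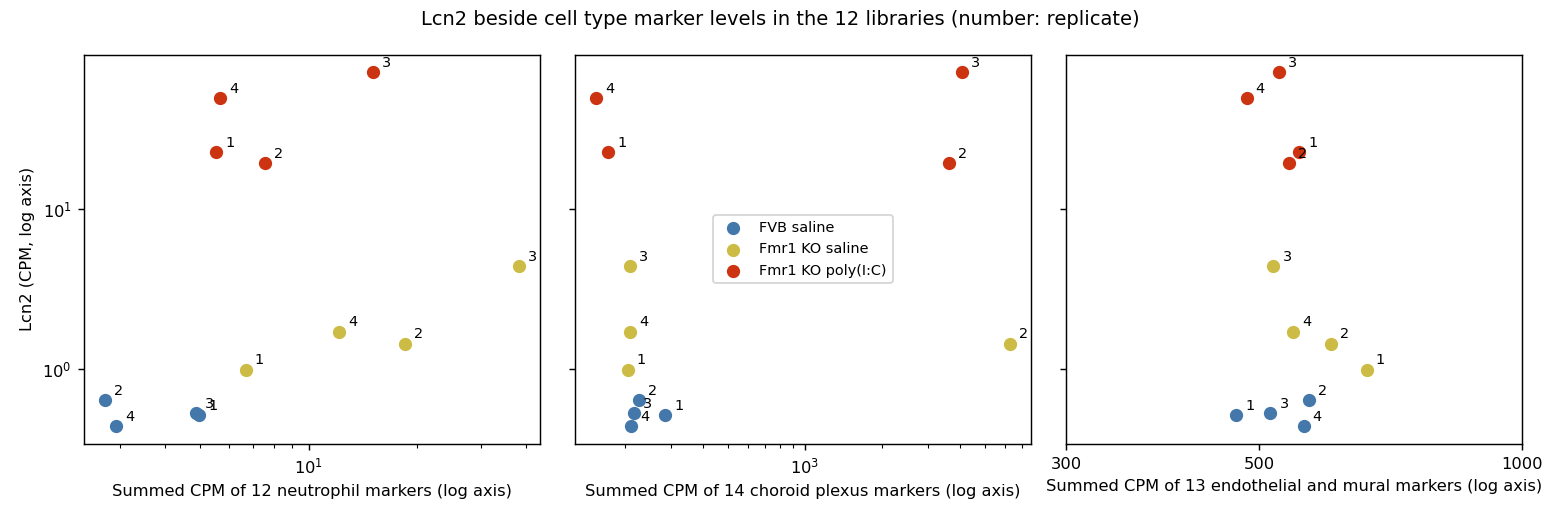
Lcn2 (vertical, CPM, log axis) is plotted for each library against the summed CPM of neutrophil, choroid plexus and endothelial and mural markers (horizontal, log axes), coloured by group and numbered by replicate. The 4 treated libraries sit highest, at 19.4 to 71.7 CPM, over neutrophil sums of 5.55 to 15.1 CPM and at both low and high choroid plexus sums.

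Choroid plexus marker sums were also set beside Lcn2. The 14 choroid plexus markers summed to 3629 and 4085 CPM in treated knockout 2 and 3, which had the lowest and the highest Lcn2 of the group, and to 172 and 154 CPM in treated knockout 1 and 4. In saline knockout 2, with a sum of 6276 CPM, Lcn2 was 1.44 CPM. The part of choroid plexus RNA in the Lcn2 level was not tested. The 13 endothelial and mural markers, of a cell type that can make lipocalin 2, summed to between 470 and 570 CPM in FVB, with 519 to 664 CPM for saline knockout mice and 483 to 555 CPM for treated ones. The range of the sum in the treated group overlapped that of both other groups, but single markers moved in opposite directions between the knockout groups: 1 of the 13 rose, 3 fell and 9 did not pass. Of all tested genes 1.81% rose and 1.06% fell. Ly6c1 rose from 44.5 to 98.3 CPM (log2 1.15, edgeR adjusted p = 5.77e-05). The angiopoietin receptor gene Tek fell from 19.8 to 10.1 CPM (edgeR adjusted p = 5.42e-05), and the transporter genes Slco1a4 from 51.5 to 26.7 CPM (9.60e-04) and Abcb1a from 40.4 to 26.4 CPM (0.0336). The part of endothelial cells in the Lcn2 level was not tested. The 10 astrocyte and Bergmann glia markers summed to 4341 to 4891 CPM in FVB, 4517 to 5027 CPM in saline and 4196 to 4739 CPM in treated knockout. Between the knockout groups 0 of these 10 rose, 1 fell (Aqp4) and 9 did not pass by edgeR. Gfap, which did not pass, was at 158, 174, 143 and 156 CPM in saline knockout 1 to 4. In treated knockout 1 to 4 it was at 208, 131, 235 and 201 CPM. The part of astrocytes in the Lcn2 level was not tested.

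Cxcl1 encodes the chemokine that attracts neutrophils through CXCR2. Cxcl1 was low: over FVB 1 to 4 it measured 0.0284, 0.239, 0.0406 and 0.0546 CPM. The saline knockout libraries, in the same order, held 0.287, 0.151, 0.154 and 0.236 CPM and the treated ones 0.213, 0.321, 0.856 and 0.369 CPM. FVB 2 lay above treated knockout 1, so even the outer groups overlapped. Cxcl1 rose in the treated knockout against FVB (log2 2.24, SE 0.618, edgeR adjusted p = 0.0334), from 14 counts over the FVB group to 78 over the treated group. This call depended on single libraries: it ended without FVB 1, 3 or 4 or treated knockout 3 or 4 (edgeR adjusted p = 0.0546 to 0.160). It also ended without the 3 libraries high in Ttr (log2 1.66, adjusted p = 0.370) and with log2 Ttr as a covariate (0.0857). Without FVB 2 the value was 3.30 (edgeR adjusted p = 0.00787). Between the knockout groups the log2 difference was 1.05 (SE 0.546, edgeR adjusted p = 0.375), and between saline knockout and FVB it was 1.19 (SE 0.661, adjusted p = 0.520).

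Il6 encodes interleukin 6, a cytokine that acts through gp130 on STAT3. It had 0 counts in each of the 8 saline libraries. In treated knockout 1 to 4 it was at 0.0354, 0, 0.101 and 0.0434 CPM, 8 counts in all (exact 95% Poisson interval 3.45 to 15.8, for counting error only). The pooled treated level was 0.0423 CPM. A count of 0 over a group, which allows up to 3 counts, limits the level in FVB to 0.0189 CPM and that of saline knockout mice to 0.0179 CPM, and the lower limit of the treated counts is close to 3. Fitted without the low-count filter, Il6 did not pass against the saline knockout (edgeR adjusted p = 0.362) or FVB (0.268). With the treated counts taken as measured, the pooled treated level was 2.24-fold the FVB limit and 2.37-fold the saline knockout limit. No difference in Il6 was thus called, and 8 counts are too few to settle whether there was one.

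The C/EBP transcription factors came next. Cebpd encodes C/EBP-delta, a factor of the acute-phase response. Over FVB 1 to 4 it measured 2.93, 1.59, 2.98 and 2.38 CPM. The saline knockout libraries, in the same order, held 1.64, 1.13, 2.23 and 1.99 CPM and the treated ones 3.15, 3.79, 5.04 and 5.10 CPM. The treated libraries lay above every other library, and the saline knockout overlapped FVB. Cebpd rose 2.43-fold in the treated against the saline knockout (log2 1.28, SE 0.242, edgeR adjusted p = 0.00414). Leaving out any 1 library kept the call (adjusted p = 0.00213 to 0.0217). Without the 3 libraries high in Ttr, which left 3 saline and 2 treated knockout libraries, the value was 1.08 (edgeR adjusted p = 0.126). Against FVB the difference was 0.79 (SE 0.238) and missed the threshold by edgeR (adjusted p = 0.0529). It passed by DESeq2 (0.0180), by edgeR with no low-count filter (0.0121) or on these 2 groups alone (0.0440), and without treated knockout 1 (0.0333) or saline knockout 2 (0.0395). Saline knockout against FVB gave −0.50 (SE 0.245, edgeR adjusted p = 0.438).

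Cebpb encodes C/EBP-beta, the factor that binds the Il6 promoter with NF-kB. It was far lower than Cebpd, at 0.291 ± 0.134, 0.268 ± 0.127 and 0.287 ± 0.0966 CPM in FVB, saline and treated knockout (SD, n = 4), 45 to 53 counts per group. The groups overlapped throughout. The log2 difference between the knockout groups was 0.08 (SE 0.481, edgeR adjusted p = 0.962). The 95% interval reached up to 1.17, past 1, which is a 2-fold rise on this scale. Whether the response of Cebpd differed from that of Cebpb was not tested.

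**Figure D3:**
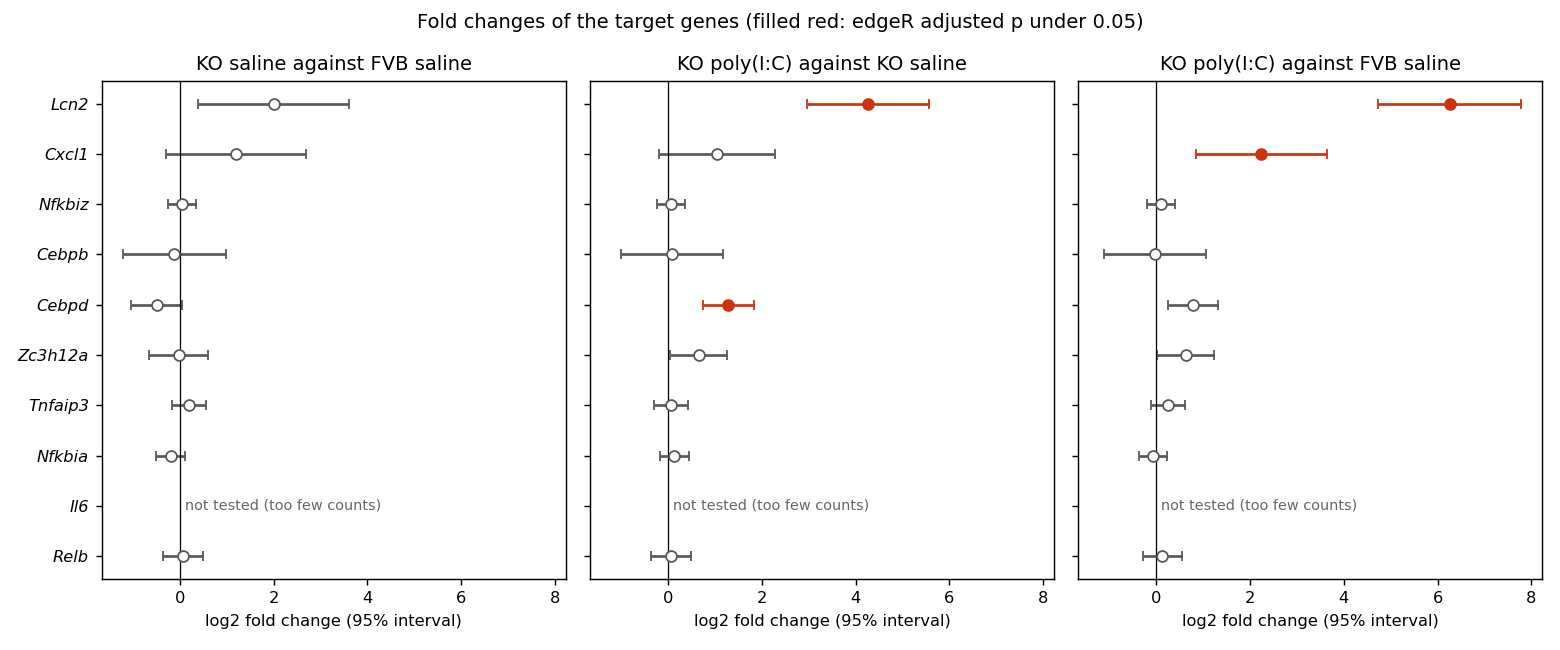
Log2 fold changes of the 9 tested genes are plotted with 95% intervals in the 3 comparisons, filled red where edgeR's adjusted p was under 0.05. Lcn2 and Cebpd are filled for treated against saline knockout, Lcn2 and Cxcl1 for treated knockout against FVB, and the intervals of Nfkbiz, Tnfaip3, Nfkbia and Relb include 0 in every panel.

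The genes that feed back on the pathway were expressed at measurable levels and did not pass. Nfkbia encodes IkB-alpha, which holds NF-kB in the cytoplasm and is itself an NF-kB target. Over FVB 1 to 4 it measured 35.5, 22.5, 24.1 and 26.1 CPM. The saline knockout libraries, in the same order, held 22.9, 24.3, 26.4 and 20.5 CPM and the treated ones 23.4, 22.0, 28.1 and 29.5 CPM. The highest library was FVB 1, and the 3 groups overlapped. The log2 difference between treated and saline knockout was 0.13, with a 95% interval of −0.17 to 0.44 (edgeR adjusted p = 0.709). Against FVB it was −0.07 (−0.37 to 0.24, edgeR adjusted p = 0.820). Both intervals stay below 1, a 2-fold rise.

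Tnfaip3 encodes A20, the ubiquitin-editing enzyme that shuts off NF-kB signalling. Over FVB 1 to 4 it measured 3.90, 6.33, 5.78 and 6.26 CPM. The saline knockout libraries, in the same order, held 7.04, 6.02, 5.59 and 6.74 CPM and the treated ones 6.43, 7.97, 6.02 and 6.05 CPM. FVB 1 was the lowest library and treated knockout 2 the highest, with the remaining 10 between 5.59 and 7.04 CPM. Treated and saline knockout differed by 0.06 on the log2 scale (95% interval −0.30 to 0.42, edgeR adjusted p = 0.906).

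Nfkbiz encodes IkB-zeta, the coactivator that IL-17 induces strongly in epithelium. Its group means were 9.30 ± 1.14 CPM for FVB, 9.62 ± 1.62 for saline and 10.02 ± 0.939 for treated knockout mice (SD, n = 4). The highest library was saline knockout 4 (12.1 CPM), above all treated ones. The treated and saline knockout differed by 0.06 (95% interval −0.24 to 0.35, edgeR adjusted p = 0.893). Relb, which encodes the subunit of the noncanonical NF-kB dimer, was at 2.80 ± 0.579, 2.93 ± 0.390 and 3.06 ± 0.381 CPM (SD, n = 4). The difference between the knockout groups was 0.06 (95% interval −0.36 to 0.48, edgeR adjusted p = 0.917). For both genes the interval against FVB also stayed below 1 on the log2 scale, at an upper bound of 0.40 for Nfkbiz and 0.55 for Relb.

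Zc3h12a did not pass either. It encodes Regnase-1, the ribonuclease that degrades Il6 and Nfkbiz transcripts. Over FVB 1 to 4 it measured 0.796, 0.583, 0.750 and 0.902 CPM. The saline knockout libraries, in the same order, held 0.860, 0.781, 0.666 and 0.668 CPM and the treated ones 0.939, 0.857, 1.64 and 1.26 CPM. Treated knockout 3 and 4 stood above all other libraries, while treated knockout 2 was just below saline knockout 1. The log2 difference between the knockout groups was 0.65 (SE 0.271), which reached an unadjusted p of 0.0269 and did not pass after adjustment (edgeR, 0.242). Against FVB it was 0.62 (SE 0.271, edgeR adjusted p = 0.187).

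The treated libraries did not rank alike across the 9 tested genes. Treated knockout 3 was the highest of its group for 4 of them (Lcn2, Cxcl1, Nfkbiz and Zc3h12a), treated knockout 2 for 3 (Cebpb, Tnfaip3 and Relb) and treated knockout 4 for 2 (Cebpd and Nfkbia). Treated knockout 2, where Tnfaip3 and Relb were highest, had the lowest Lcn2. The spread of Lcn2 within the treated group was also wide, with a coefficient of variation of 60.3% against 9.37% for Nfkbiz.

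Levels were compared between genes per kilobase of the exons of all their GENCODE M21 transcripts. In FVB, Nfkbia stood first at 16.8 ± 3.63 CPM per kb, followed by Nfkbiz at 1.85 ± 0.227, and then by Tnfaip3 (0.770 ± 0.158), Relb (0.721 ± 0.149) and Cebpd (0.659 ± 0.173), which did not differ beyond their SD. Zc3h12a (0.263 ± 0.0460), Lcn2 (0.201 ± 0.0313) and Cebpb (0.194 ± 0.0893) came next, with Cebpb overlapping both, and Cxcl1 (0.0483 ± 0.0529) was the lowest gene detected (SD, n = 4). In the saline knockout Lcn2 was at 0.812 ± 0.584 CPM per kb, between Tnfaip3 and Relb and within 1 SD of both. In the treated knockout Lcn2 moved from place 7 to place 2, at 15.6 ± 9.39 CPM per kb beside 16.0 ± 2.26 for Nfkbia (SD, n = 4), a gap far inside their SD. The mapped transcripts of Lcn2 span 2623 exonic bases, and a shorter true transcript would place it higher.

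By the mean absolute difference of standardised log2 CPM over the 12 libraries, the genes most like Lcn2 among 12467 were Myd88 (0.164), Osmr (0.195), Gbp5 (0.231), Isg15 (0.239) and Irf7 (0.241). Myd88 encodes the adaptor of toll-like and IL-1 receptors, Osmr the oncostatin M receptor, and the others are interferon-induced genes. Cebpd was at place 492 by the same measure, and Nfkbia at place 3412. The genes most like Nfkbia were Arl4d (0.257), Rasd1 (0.364), Cyp4f14 (0.369), Aldh6a1 (0.381) and Ccdc136 (0.386). These likenesses are descriptions, since all genes share the same libraries and treatment.

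The other genes of the pathway were counted by role for treated against saline knockout, leaving the 10 genes out. In that comparison 1.81% of all tested genes rose and 1.06% fell by edgeR, and the median log2 value of all was −0.00167. Of the 19166 tested genes 2973 had an unadjusted edgeR p under 0.05. Of 11 NF-kB subunit and kinase genes edgeR, DESeq2 and limma-voom each called 0, and 0 had an unadjusted edgeR p under 0.05, with Rela at 0.0019 and Nfkb1 at −0.02 on the log2 scale. Of 14 tested inhibitors and feedback genes 2 rose, 0 fell and 12 did not pass by edgeR (4 had an unadjusted p under 0.05). DESeq2 called 3 higher and limma-voom 2, and both called 0 lower. The 2 that rose by edgeR were Usp18, an interferon-induced gene (1.75 to 19.3 CPM, log2 3.47, SE 0.305, edgeR adjusted p = 1.07e-05), and Bcl3, an atypical IkB protein (0.393 to 1.24 CPM, log2 1.62, SE 0.413, adjusted p = 0.0389). The call of Bcl3 ended without saline knockout 1, 2 or 3 or treated knockout 1, 3 or 4 (edgeR adjusted p = 0.0613 to 0.123), and without the 3 libraries high in Ttr (0.336). Of 12 genes of mRNA decay and stabilisation edgeR and limma-voom called 0 and DESeq2 1, and 1 had an unadjusted edgeR p under 0.05. Of 3 further C/EBP family genes all 3 tools called 0, and 1 had an unadjusted edgeR p under 0.05. Zfp36, the decay factor tristetraprolin, rose against FVB (4.19 to 6.82 CPM, log2 0.71, edgeR adjusted p = 0.0179). That call ended without FVB 3 or 4 or treated knockout 3 (0.0502 to 0.0746) and without the 3 libraries high in Ttr (0.268). Of the 14 inhibitors and feedback genes edgeR called 1, Tifa, in saline knockout against FVB (log2 1.14, SE 0.237, adjusted p = 0.0243). There limma-voom called 0 of the 14 and DESeq2 1, and edgeR called 1.53% of all tested genes. Tifa also rose in treated knockout against FVB (log2 1.01, edgeR adjusted p = 0.0164), as did 3.81% of all tested genes. Between the knockout groups it did not pass (−0.13, edgeR adjusted p = 0.855).

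**Figure D4:**
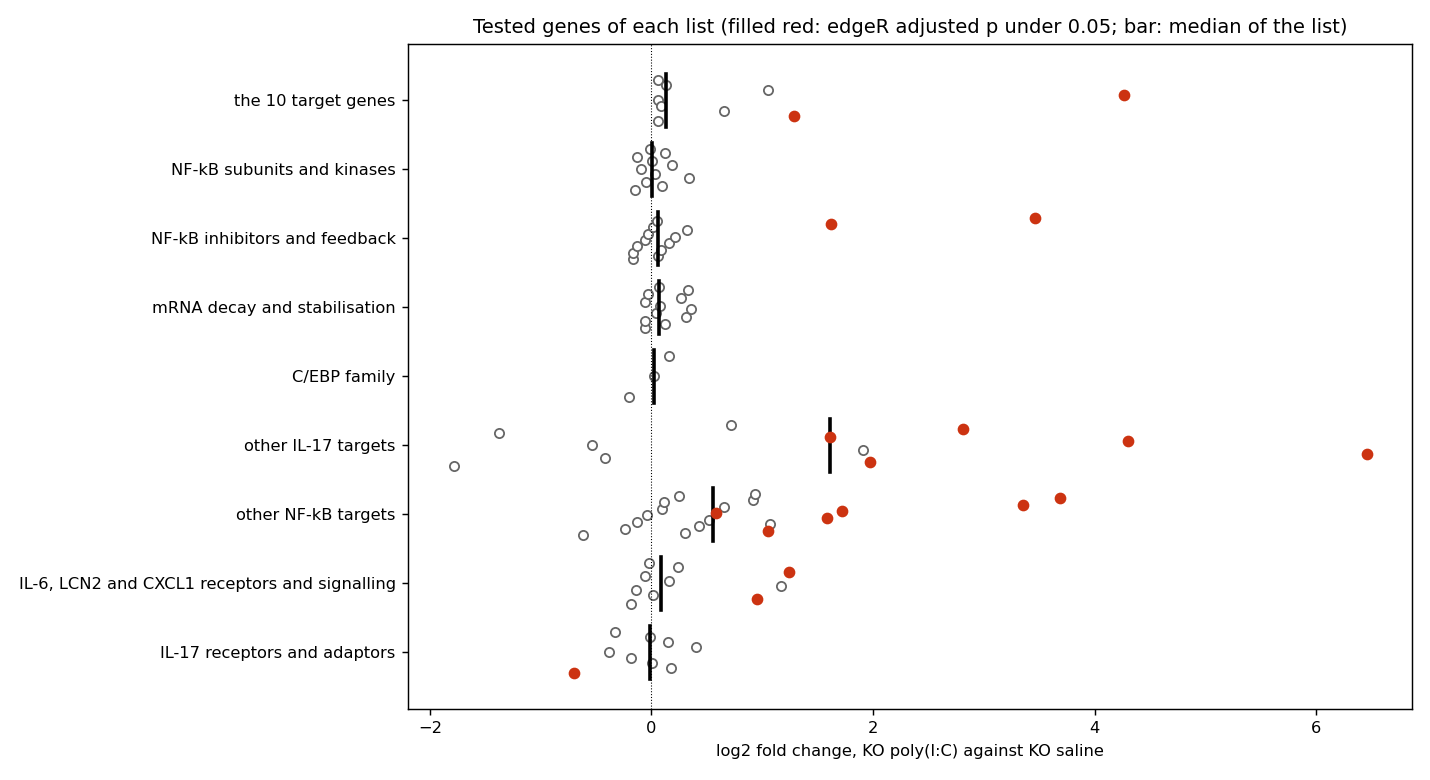
Each point is a tested gene's log2 fold change of treated against saline knockout (horizontal), by list (vertical), filled red where edgeR's adjusted p was under 0.05, with a bar at the list's median. The 10 target genes are left out of the other lists. The other IL-17 targets have a median of 1.61 and the other NF-kB targets one of 0.55, against 0.0019, 0.06 and 0.07 for the subunits, feedback genes and decay genes. Over all tested genes, which are not plotted, the median was −0.00167.

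Effector genes outside the 10 were counted next. Between the knockout groups 1.81% of all tested genes rose by edgeR, and the median log2 value of all was −0.00167. Of 20 other IL-17 targets 11 were tested, of which 5 rose, 0 fell and 6 did not pass by edgeR (8 had an unadjusted p under 0.05), with a median of 1.61. DESeq2 called 5 higher and 1 lower, and limma-voom 5 and 0. Cxcl10, a chemokine that interferon also induces, went from 0.272 to 24.6 CPM (log2 6.46, SE 0.868, edgeR adjusted p = 0.00331, and 7.22 by limma-voom). Ccl2, the monocyte chemokine, went from 0.0965 to 1.94 CPM (4.30, SE 0.632, adjusted p = 6.35e-04), and Ptgs2, the prostaglandin-synthesising enzyme COX-2, from 1.52 to 5.98 CPM (1.97, SE 0.256, 6.42e-05). Ccl7 (2.81) and Timp1 (1.61) were the others. Without the 3 libraries high in Ttr, the calls of Cxcl10 (edgeR adjusted p = 0.0602), Ccl7 (0.145) and Timp1 (0.429) ended. Among the 9 targets with too few counts to test, Csf3, which drives neutrophil production, had 1, 8 and 27 counts over FVB, saline and treated knockout, Cxcl2 had 0, 57 and 36, and Ccl20 had none. Single libraries held most of the Cxcl2 counts, with 43 in saline knockout 4 and 26 in treated knockout 2. In saline knockout against FVB 2 of the 11 rose by edgeR, S100a8 and S100a9, which are also among the neutrophil markers above, where 1.53% of all tested genes were called. By limma-voom 0 of the 11 passed and by DESeq2 3 did.

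Of 22 other NF-kB targets 20 were tested, of which 6 rose, 0 fell and 14 did not pass by edgeR (11 had an unadjusted p under 0.05), with a median of 0.55. DESeq2 called 7 higher and 1 lower, and limma-voom 7 and 0. Of all tested genes 1.81% rose by edgeR, and the median of all was −0.00167. Traf1, which encodes an adaptor of TNF receptors and was picked with its values known, averaged 8.83 and 5.76 CPM in saline and treated knockout without overlap and missed the threshold (log2 −0.62, SE 0.165, edgeR adjusted p = 0.0502). Icam1, the adhesion molecule for leukocytes on endothelium, went from 2.09 to 6.29 CPM (log2 1.59, SE 0.278, edgeR adjusted p = 0.00295). Tnfsf10, the death ligand TRAIL, went from 4.92 to 16.2 CPM (1.72, SE 0.191, adjusted p = 1.64e-05), and Irf1 from 3.93 to 8.17 CPM (1.05, SE 0.178, 0.00129). Selp, the endothelial P-selectin, was at 0.0695 and 0.756 CPM (3.36, SE 0.624, 0.00362; 3.97 without saline knockout 3), and Ccl5 at 0.174 and 2.28 CPM (3.69, SE 0.655, 0.00608; 4.59 without saline knockout 3). Without the 3 libraries high in Ttr the calls of Irf1, Icam1, Selp and Ccl5 ended (edgeR adjusted p = 0.0764, 0.164, 0.212 and 0.124), with values of 0.94, 1.32, 2.52 and 2.84. Sele, the endothelial E-selectin gene, was chosen after its values were seen. It had 2 counts over FVB, both in FVB 4 (0.0546 CPM), and 0 over the saline knockout group. The treated group held 175, at 1.60, 1.07, 0.781 and 0.0868 CPM in libraries 1 to 4, with 4 counts in treated knockout 4. Sele was too sparse for the filter. Its pooled level of 0.926 CPM was, with the treated counts taken as measured, at least 51.9-fold higher than the limit of 3 counts over the saline knockout group allows. It was lowest in treated knockout 4, where Cebpd was highest.

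On the side that receives the secreted products, 10 receptor and signalling genes were tested. Between the knockout groups 2 of the 10 rose by edgeR and limma-voom, and 3 by DESeq2. Of all tested genes 1.81% rose by edgeR. The 2 receptor genes that edgeR called were Osmr (4.43 to 10.5 CPM, log2 1.24, SE 0.158, edgeR adjusted p = 5.30e-05) and Il6ra, the IL-6 receptor (3.66 to 7.08 CPM, 0.95, SE 0.153, adjusted p = 7.65e-04). Socs3, the STAT3-induced inhibitor of gp130 signalling, differed by 1.17 (SE 0.322) and missed the threshold by edgeR (0.0599), while DESeq2 called it (0.0151). It passed without saline knockout 4 (0.0354) or treated knockout 4 (0.00233). Cxcr1 had no counts in any library. On the receptor side of IL-17, Il17a had 0 counts in all 12 libraries. Of 9 tested receptor and adaptor genes 1 fell, Il17rd (log2 −0.70, edgeR adjusted p = 0.0430), and 8 did not pass, where 1.06% of all tested genes fell. DESeq2 called 1 higher and 1 lower, and limma-voom 0 (0.0608 for Il17rd). The edgeR call of Il17rd also ended without FVB 3 or 4, saline knockout 1, 2 or 3 or any 1 treated knockout library (edgeR adjusted p = 0.0555 to 0.139). Il17ra averaged 12.31 CPM in saline and 16.25 CPM in treated knockout and did not pass by edgeR. Its treated libraries lay above the saline knockout ones without overlap (at least 14.93 against at most 14.75 CPM), as did 4.93% of all tested genes.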

How the data were processed

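Read counts per Ensembl gene were deposited by the authors as 1 table of whole counts for 12 libraries. Trim Galore, HISAT2 and featureCounts on GRCm39 made them, per the submitters' processing notes. Not given in the sources used here are versions, strand setting, annotation release and how reads that match several places were counted. GENCODE M21 gave the symbols, by Ensembl identifier, of 52029 genes of 57010, holding 99.4% of counts. Genes kept by filterByExpr (minimum count 10, minimum total 15; 19166) received TMM factors, and edgeR 4.0.16 fitted 3 group means to them (robust quasi-likelihood, 9 residual degrees of freedom), and p-values were adjusted by Benjamini-Hochberg over all tested genes. The SE was obtained as the size of the log2 fold change divided by the root of its F statistic, and 95% intervals use a t distribution with those degrees of freedom and are unadjusted. The fit was tested on simulated data. Alternatives were DESeq2 1.42.0, limma-voom (limma 3.58.1), RLE scaling, no filter, only the 2 groups compared, a replicate block, and each library left out in turn. A fit without the 3 libraries high in Ttr and one with a log2 Ttr covariate were added after seeing the data. The 10 genes, the gene lists and the tests were chosen with earlier results of these data known. All 10 genes are named, with up to 5 called genes per pathway list by smallest p between the knockout groups, neutrophil genes and Ttr, and the 5 genes most like Lcn2 and Nfkbia whose log2 CPM averaged 1 or more. Other pathway genes named were chosen after their values were seen. A deposited count shared with a near-identical or overlapping gene is uncertain.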

Additional observations from a re-analysis of the deposited data

Results flagged for a closer look

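In 4 of 28 sets of 4 libraries (1 gene in 1 group each), 1 library stood apart from the other 3 by Dixon's test, which chance does in about 1 of 20. Cxcl1 was at 0.239 CPM in FVB 2 against 0.0284 to 0.0546 CPM in the other FVB libraries. Nfkbiz was at 12.1 CPM in saline knockout 4 against 8.62 to 9.02 CPM in its group, and at 8.63 CPM in treated knockout 1 against 10.4 to 10.7 CPM. Relb was at 2.35 CPM in saline knockout 1 against 3.10 to 3.15 CPM in its group.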

How the results depend on the processing

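The number of the 10 genes called was the same, 2, between the knockout groups under every alternative except leaving out the 3 libraries high in Ttr (1, Lcn2), which left 3 and 2 libraries. Lcn2 in that comparison ranged from 3.85 to 4.87 over all alternatives and passed in each (adjusted p at most 0.0353). Between saline knockout and FVB, 1 was called by DESeq2 and by the fit of these 2 groups alone and 0 otherwise. Between treated knockout and FVB, 1 was called without the libraries high in Ttr and with the Ttr covariate, and 1 to 3 with single libraries left out. Of all genes, 294 were called for saline knockout against FVB, but 633 by DESeq2 and 506 with no filter (156 to 300 with single libraries left out). Of all genes, 550 were called for treated against saline knockout, but 986 by DESeq2 and 215 without the libraries high in Ttr (347 to 689 with single libraries left out). Of all genes, 1352 were called for treated knockout against FVB, but 556 without the libraries high in Ttr (791 to 1542 with single libraries left out). The causes were not tested.

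Members that never passed changed sign. Without the libraries high in Ttr the log2 values were −0.651 for Cebpb, −0.0678 for Nfkbiz, −0.0470 for Tnfaip3 and −0.00987 for Relb between the knockout groups, and 0.151 for Cebpb between saline knockout and FVB. For treated knockout against FVB, Cebpb gave 0.0366 by limma-voom and 0.0563 with the replicate block. With single libraries left out, Cebpb ran from −0.179 to 0.352, Tnfaip3 from −0.0388 to 0.113 and Relb from −0.0290 to 0.148 between the knockout groups. Between saline knockout and FVB, Cebpb ran from −0.385 to 0.153, Nfkbiz from −0.0816 to 0.119, Zc3h12a from −0.133 to 0.0641 and Relb from −0.0485 to 0.183. Between treated knockout and FVB, Cebpb ran from −0.300 to 0.198 and Nfkbia from −0.147 to 0.0892.

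Replicate numbers were shared by the groups, but deviations of same-numbered libraries correlated at −0.0987 to 0.145, over 0.1 in 2 of 12 pairs, so the numbers were not taken as pairs. The replicate block gave 274, 563 and 1322 called genes for saline knockout against FVB, treated against saline knockout and treated knockout against FVB. With it Cxcl1 no longer passed against FVB (edgeR adjusted p = 0.0592) and Cebpd passed (0.0243). Libraries correlated best with their own number in 2, 4 and 1 of 8 cases. Il6 was too sparse for any fit but the unfiltered one.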
